A study of Homo sapiens with 12 samples.

Results

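The baseline difference between AsPC-1 and PANC-1, both established human pancreatic cancer cell lines, was described from the 4 mock libraries of a series of 12 RNA sequencing libraries. The 4 libraries were chosen by their labels alone: 2 from AsPC-1 and 2 from PANC-1, each with the genotype given as Mock and each called biological replicate 1 or 2. The other 8 libraries came from the same lines overexpressing TAp63 or deltaNp63, the protein classes made from alternative promoters of TP63, with 2 libraries in each line for each form. The labels do not describe the mock further, give no vector, passage or culture time, and do not say whether replicate cultures were grown apart, so the p-values below measure only the spread between these libraries. Each line is a single established culture, so a difference between them is a difference between these lines and cannot be read as one between classes of tumour.

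Pancreatic ductal adenocarcinoma arises in cells of the ductal and acinar epithelium, and its cell lines range from cohesive cells that keep junctions, mucins and gut-type transcription factors to spindle-shaped cells that have lost them. Epithelial cells are held together by E-cadherin, claudins and desmosomes, and transcription factors of the SNAI, ZEB and TWIST families, which bind the DNA motif called the E-box, repress those genes during epithelial-to-mesenchymal transition. PANC-1 is widely used as a poorly differentiated line with mesenchymal features, and AsPC-1, grown from ascites, as a more epithelial one.

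Expression was given as TPM, the relative abundance of a transcript corrected for its length, which was summed over the transcripts of a gene. The read depth behind it is unknown. Between 12468 and 12525 genes reached 1 TPM in the AsPC-1 mock libraries and between 13069 and 13117 in those of PANC-1. Over the 14767 tested genes, which are not independent replicates, Pearson's r between the 2 libraries of a line was 0.9925 for AsPC-1 and 0.992 for PANC-1. Their median absolute log2 difference was 0.13 and 0.11 log2 units. The labelled cell type was checked against marker lists. The summed level of 12 ductal markers was 11351 and 11300 TPM in AsPC-1 and 3781 and 4098 TPM in PANC-1, and 6 of the 10 tested were lower and 1 higher by the rule given below. None of 13 acinar and 9 islet markers reached 1 TPM in a mock library, and insulin (INS) and the acinar lipase PNLIP were listed at 0 in each. The leukocyte antigen PTPRC lay between 0.0081 and 0.0102 TPM and the endothelial cadherin CDH5 did not pass 0.043 TPM. Single genes of the fibroblast and leukocyte lists were high in 1 line: lumican (LUM) stood at 224 and 184 TPM in AsPC-1 and lysozyme (LYZ) at 129.6 and 109.8 TPM, against at most 0.0523 and 0.137 TPM in PANC-1. The fibroblast list summed to 227 and 186 TPM in AsPC-1, nearly all LUM, and to 85.6 and 88.1 TPM in PANC-1, nearly all the collagen COL1A1, and 9 of its 12 genes stayed under 1 TPM. The leukocyte list had 10 of 13 genes under 1 TPM and summed to similar levels, at 245 and 237 TPM in AsPC-1 and 256 and 287 TPM in PANC-1, most of it CD68 in PANC-1. The part of other cells in the results was not tested. In bulk RNA, fewer cells with a transcript and less of it per cell cannot be told apart.

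PANC-1 and AsPC-1 differed widely at baseline. Differences are given as PANC-1 minus AsPC-1 on the scale of log2(TPM + 1), which understates the change of low genes, with the standard error (SE) of the limma fit. A gene was called where the Benjamini-Hochberg adjusted p of limma was under 0.05 and the difference was at least 1 log2 unit. By that rule 5644 of the 14767 genes were called, or 38.2%. Of these, 3453 (23.4%) were higher in PANC-1 and 2191 (14.8%) lower. Without the limit of 1 log2 unit, 10711 genes (72.5%) passed. The median difference over all tested genes was 0.24, so the values as deposited leaned towards PANC-1. With each library centred on its own median the split was 2816 higher and 2582 lower, the share higher falling from 61.2% to 52.2%. Very large differences leaned the other way, with 162 genes lower by 5 log2 units or more and 91 higher. With 2 libraries against 2, an exact permutation test cannot go below a two-sided p of 0.333. The adjusted p-values rest on a spread estimated over all 12 libraries, with 6 residual degrees of freedom.

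The line difference could be read again, in separate libraries, from the cells that overexpressed p63. The line comparison called 6176 genes (41.8%) in the TAp63 libraries, 4078 of them higher in PANC-1 (27.6%) and 2098 lower (14.2%). In the deltaNp63 libraries it called 6295 (42.6%), with 4238 higher (28.7%) and 2057 lower (13.9%). Of the 3453 genes higher in mock PANC-1, 3127 (90.6%) were called higher in both other comparisons. Of the 2191 lower genes, 1755 (80.1%) were called lower in both. The 3 comparisons use separate libraries but share the estimate of spread. Only 2 genes, the long non-coding RNAs ENSG00000258749 and ENSG00000267633, were called in opposite directions, and both were named after their values were seen.

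Epithelial junction and identity genes were mostly lower in PANC-1. Of 28 tested members of this list, 22 were called lower and 2 higher, with a median difference of -2.70 against 0.24 for all genes. Over all tested genes 14.8% were lower and 23.4% higher, shares that stand beside the counts of each list below. The 5 largest falls were those of ELF3, EHF, ST14, CRB3 and ESRP1, of which ST14 is a membrane protease. Epithelial cadherin, CDH1 (ENSG00000039068, plus strand of chromosome 16, 68737292 to 68835537 in hg38), stood at 81.8 and 102 TPM in AsPC-1 and at 3.51 and 2.42 TPM in PANC-1. Its difference was -4.55 (SE 0.152, limma adjusted p = 2.01e-09). E-cadherin transcripts were therefore still detected in both PANC-1 libraries, well apart from those of AsPC-1.

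Promoter sequences of list members called lower in PANC-1 are shown as a description of sequence. The E-box is the motif through which SNAI and ZEB factors are known to act. The motif was searched as CACCTG and CAGGTG, which are the same site read on either strand, in RefSeq promoters of GRCh38.p14 that run from 250 bases before a start to 50 after it. A pair of windows with many matches and a window with none are printed 5′ to 3′, with matches in capitals. CRB3 is chr19:6464021-6464320 on the plus strand, CLDN7 is chr17:7262429-7262728 on the minus strand and EHF is chr11:34624007-34624306 on the plus strand.
CRB3: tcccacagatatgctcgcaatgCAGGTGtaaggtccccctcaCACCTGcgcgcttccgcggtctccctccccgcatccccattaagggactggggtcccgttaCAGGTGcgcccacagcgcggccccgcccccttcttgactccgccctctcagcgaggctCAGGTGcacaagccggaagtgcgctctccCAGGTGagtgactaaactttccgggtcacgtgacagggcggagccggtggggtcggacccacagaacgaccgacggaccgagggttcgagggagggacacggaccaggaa
CLDN7: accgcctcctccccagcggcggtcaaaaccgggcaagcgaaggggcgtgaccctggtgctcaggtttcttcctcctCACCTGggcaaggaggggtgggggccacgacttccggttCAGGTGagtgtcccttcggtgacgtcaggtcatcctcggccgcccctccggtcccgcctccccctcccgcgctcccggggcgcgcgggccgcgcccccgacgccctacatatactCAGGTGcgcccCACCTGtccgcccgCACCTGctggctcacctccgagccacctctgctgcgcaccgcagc
EHF: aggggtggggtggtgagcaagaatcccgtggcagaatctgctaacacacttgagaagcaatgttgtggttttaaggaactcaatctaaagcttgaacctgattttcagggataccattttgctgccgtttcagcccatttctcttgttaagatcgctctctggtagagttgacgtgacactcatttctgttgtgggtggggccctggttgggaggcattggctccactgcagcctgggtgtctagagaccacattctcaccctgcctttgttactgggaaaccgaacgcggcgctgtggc
The CRB3 and CLDN7 windows each hold 5 matches, and the EHF window holds no match. A second CLDN7 window, at chr17:7263164-7263463 on the minus strand, also holds no match, as does a second EHF window at chr11:34632316-34632615. Over the 13 called epithelial genes that have an entry, 8 of 18 windows (44.4%) hold a match, against 19% of the 15709 windows of tested genes and 20.6% of all 35116 windows. CDH1 and EPCAM have no entry. List members that were not called lower were not counted apart, so whether matches go with the lower levels was not tested. A match is a description of the sequence and says nothing of binding in these cells.

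CRB3, a polarity protein of the apical membrane, stood at 61.7 and 67.1 TPM in AsPC-1 and at 0.574 and 0.164 TPM in PANC-1, a difference of -5.59 (SE 0.142, limma adjusted p = 3.11e-10). CLDN7, a tight junction claudin, fell less, from 304 and 302 TPM to 39.6 and 44.05 TPM, a difference of -2.83 (SE 0.103, limma adjusted p = 3.75e-09). EHF, an epithelial ETS factor, had 230 and 228 TPM in AsPC-1 and 0.018 and 0.0277 TPM in PANC-1, with a difference of -7.81 (SE 0.122, limma adjusted p = 2.48e-11). None of the 3 genes overlapped between the lines, as was true of 87.6% of all tested genes. The related factor ELF3 was similarly apart, at 473 and 505 TPM against 1.24 and 1.02 TPM. The epithelial splicing regulator ESRP1 had 51.4 and 47.3 TPM in AsPC-1 and 0.258 and 0.204 TPM in PANC-1, a difference of -5.35 (SE 0.133, limma adjusted p = 2.67e-10). Its paralogue ESRP2 went the other way, at 6.12 and 5.49 against 14.1 and 12.3 TPM, a difference of 1.06 (SE 0.142, limma adjusted p = 6.82e-05) that drops to 0.89 with median centring and is then not called. The second higher member was AP1M2, an epithelial clathrin adaptor subunit, at 0.349 and 0.865 against 12.9 and 11.98 TPM.

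Several adhesion genes were lower in PANC-1 and still present. EPCAM, the epithelial adhesion molecule used to sort carcinoma cells, stood at 1372 and 1256 TPM in AsPC-1 and at 49.5 and 45.1 TPM in PANC-1 (difference -4.77, SE 0.0893, limma adjusted p = 5.73e-11). Claudin CLDN4 stood at 352 and 441 against 110 and 123 TPM. Occludin (OCLN) did not separate the lines, at 33.9 and 39.4 against 33.8 and 37.4 TPM, with a difference of -0.04 (95% interval -0.36 to 0.28, limma adjusted p = 0.815). The libraries of the lines overlapped for OCLN and for no other gene of this paragraph, and 87.6% of all tested genes did not overlap.

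**Figure D1:**
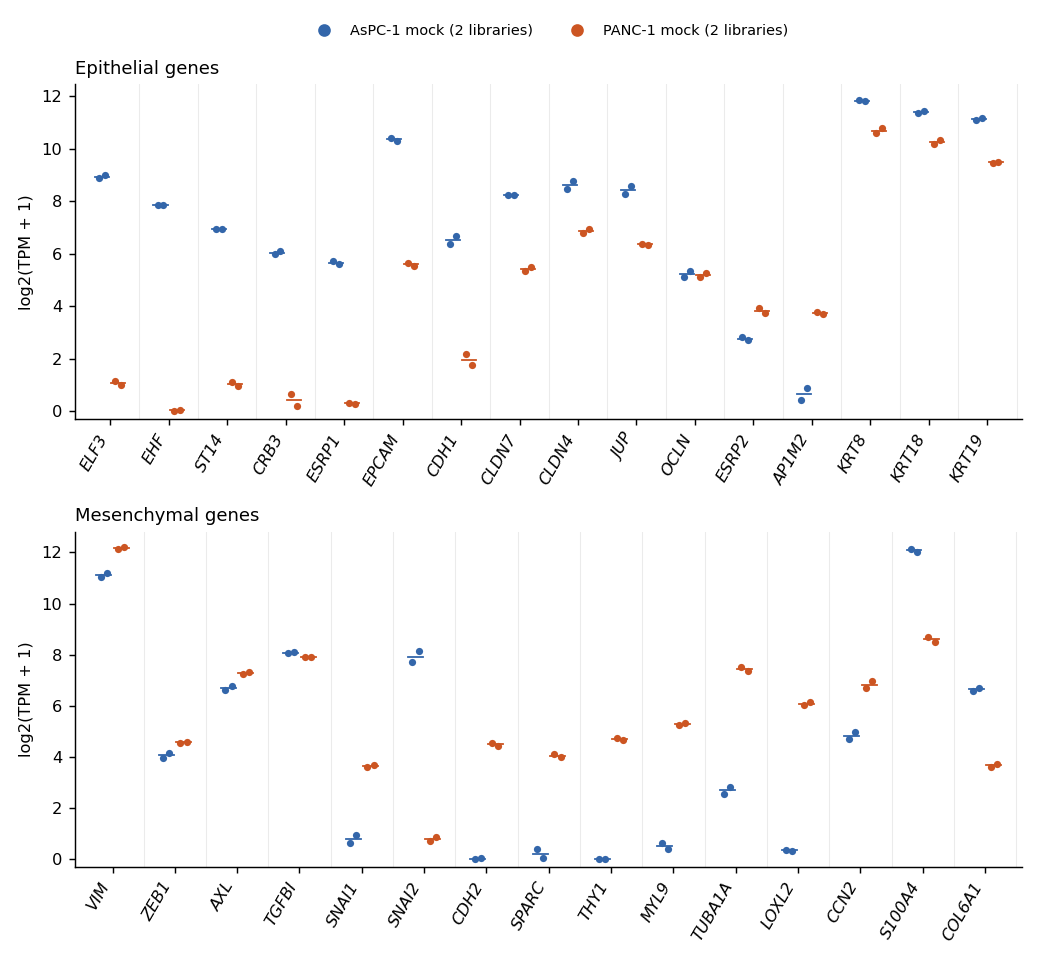
Levels of 16 epithelial genes (upper panel) and 15 mesenchymal genes (lower panel) in each mock library, on a log2(TPM + 1) axis; each point is a library and each line the mean of the 2 libraries. Most epithelial genes sit lower in PANC-1, with occludin level, while SNAI1 and SNAI2 sit on opposite sides.

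Mesenchymal genes were higher in PANC-1 for 19 of 32 tested members and lower for 3, with a median difference of 1.32 that was 2.23 with a pseudocount of 0.1. The summed level of the list was similar in both lines, at 8511 and 8730 TPM in AsPC-1 and 8632 and 9249 TPM in PANC-1. The transcription factors of the transition did not move together. SNAI1 stood at 0.546 and 0.909 TPM in AsPC-1 and at 11.3 and 11.9 TPM in PANC-1, a difference of 2.88 (SE 0.133, limma adjusted p = 2.42e-08). SNAI2, a close relative, showed the reverse, with 206 and 283 TPM in AsPC-1 and 0.618 and 0.820 TPM in PANC-1, a difference of -7.14 (SE 0.194, limma adjusted p = 4.74e-10). No library of either line overlapped the other for these genes, as for 87.6% of all tested genes. ZEB1 was present in both lines, at 14.5 and 16.8 against 22.3 and 22.9 TPM, and its difference of 0.51 (SE 0.178, limma adjusted p = 0.0258) stayed under 1 log2 unit. TWIST2 was listed at 0 in both AsPC-1 libraries and at 2.51 and 2.58 TPM in PANC-1 (limma adjusted p = 3.88e-06). ZEB2 was low in both, at most 0.0366 TPM in AsPC-1 and 0.828 and 1.90 TPM in PANC-1. Its difference of 1.17 (limma adjusted p = 0.000431) was no longer called at 0.86 with quantile normalization, 0.99 with median centring or 0.83 without PANC-1 mock replicate 2.

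Among structural genes, vimentin (VIM, the mesenchymal intermediate filament) was abundant in both lines. It stood at 2076 and 2361 TPM in AsPC-1 and at 4439 and 4695 TPM in PANC-1, a difference of 1.04 (SE 0.0838, limma adjusted p = 1.58e-06). That call rests on the threshold: the value was 0.87 with median centring and 0.95 without AsPC-1 mock replicate 1. Larger steps were seen for neural cadherin CDH2, at 0 and 0.0219 against 22.4 and 20.6 TPM, and for the collagen crosslinker LOXL2, at 0.273 and 0.251 against 63.6 and 69.7 TPM (difference 5.74, SE 0.110, limma adjusted p = 6.21e-11). LOXL2 overlaps ENTPD4 on its strand, so part of its value could belong there. The myosin light chain MYL9 had 0.539 and 0.309 against 37.3 and 38.9 TPM. THY1, a surface glycoprotein of fibroblasts, was listed at 0 in AsPC-1 and at 25.9 and 24.4 TPM in PANC-1. TUBA1A also rose, from 4.80 and 6.15 to 184 and 165 TPM, by 4.77 (SE 0.209, limma adjusted p = 1.58e-08), but is uncertain because TUBA1B is a near-identical copy. Besides SNAI2, the lower members were S100A4 and COL6A1. S100A4, a calcium-binding protein named for fibroblasts, had 4495 and 4187 TPM in AsPC-1 and 409 and 362 TPM in PANC-1, and collagen COL6A1 had 95.5 and 102 against 11.2 and 12.3 TPM. Fibronectin (FN1), a classic mesenchymal gene, stood at 0.207 and 0.291 against 0.54 and 1.105 TPM and was not called.

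Classical-subtype markers, genes of gut-like pancreatic tumours, were lower in PANC-1 for 12 of 16 tested members and higher for 1, with a median of -2.20 that was -1.003 over 24 members with no filter on low values, -4.49 with a pseudocount of 0.1 and -7.23 over the 8 members with a mean of at least 5 TPM. Basal-like markers did not mirror them: 7 of 13 were lower and 2 higher, with a median of -1.38 that ran from -0.49 with no filter to -2.92 with a pseudocount of 0.1. LGALS4, a galectin of gut epithelium, stood at 524 and 511 TPM in AsPC-1 and at 1.52 and 0.732 TPM in PANC-1 (difference -7.96, SE 0.189, limma adjusted p = 2.10e-10). The intestinal cadherin CDH17 had 749 and 746 against 1.07 and 0.898 TPM, and the tetraspanin TSPAN8 252 and 205 against 0.171 and 0.0744 TPM. AGR2, a disulfide isomerase of secretory cells, was the exception at 47.7 and 48.4 against 111 and 92.9 TPM, a difference of 1.07 (SE 0.129, limma adjusted p = 3.28e-05) that was 0.94 without PANC-1 mock replicate 1 and 0.90 with median centring. Of the basal-like genes, the growth factor AREG, a ligand of EGFR, had 1557 and 1770 TPM in AsPC-1 and 1.23 and 1.60 TPM in PANC-1, a difference of -9.43 (SE 0.180, limma adjusted p = 6.13e-11). TNS4, a focal adhesion tensin, stood at 47.3 and 52.5 against 0.139 and 0.348 TPM. CTSV, a cysteine protease, and KRT17, a basal keratin with near-identical pseudogenes, were the higher 2. Both subtype lists thus had more lower than higher members in PANC-1.

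Mucins and carcinoembryonic adhesion molecules were lower for 5 of 7 tested members and higher for none, with a median of -4.98 that was -0.22 over 20 members with no filter on low values. CEACAM6, a cell surface adhesion molecule, had 897 and 858 TPM in AsPC-1 and 0.221 and 0 TPM in PANC-1, a difference of -9.64 (SE 0.125, limma adjusted p = 1.20e-11); it overlaps ENSG00000267881 on its strand. Mesothelin (MSLN), a tumour antigen, had 234 and 255 TPM against 1.35 and 1.35 TPM. Of the 22 listed genes, 13 stayed under 1 TPM in every mock library.

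The transcription factors of endoderm and pancreas split. Of 16 tested, 10 were lower in PANC-1 (62.5%) and 4 higher (25.0%), beside 14.8% and 23.4% of all genes. Their median was -1.64, and it was -0.83 with no filter on low values and -3.20 with a mean of at least 5 TPM. GATA6, which sets the classical programme in pancreatic tumours, stood at 48.4 and 64.8 TPM in AsPC-1 and at 0.445 and 0.719 TPM in PANC-1, a difference of -5.18 (SE 0.163, limma adjusted p = 1.29e-09). HNF4A, a nuclear receptor of gut and liver, had 41.9 and 44 against 0.229 and 0.190 TPM, also -5.18 (SE 0.150, limma adjusted p = 7.08e-10). Both were low in both PANC-1 libraries. KLF5, a zinc finger factor of proliferating epithelium, fell furthest, at 337 and 394 against 1.53 and 2.03 TPM. The pioneer factor FOXA2 was the opposite, listed at 0 in both AsPC-1 libraries and at 9.89 and 9.73 TPM in PANC-1 (limma adjusted p = 2.95e-07). SOX9, a ductal progenitor factor, was present in both and higher in PANC-1, at 17.6 and 20.8 against 61.9 and 68.0 TPM (1.71, SE 0.115, limma adjusted p = 3.98e-07). GATA4, whose canonical transcript is not a row of the deposited table, also rose, by 1.39, from 2.91 and 3.12 to 9.16 and 9.96 TPM.

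Because the series concerns p63, its own baseline was read. TP63 (ENSG00000073282, plus strand of chromosome 3, 189631389 to 189897276 in hg38) was low in both mock lines, at 1.10 and 0.817 TPM in AsPC-1 and at 0.119 and 0.0245 TPM in PANC-1. Its difference of -0.87 (SE 0.252, limma adjusted p = 0.0105) was under 1 log2 unit and so not called, though it reached -1.04 with median centring and -2.67 with a pseudocount of 0.1. The lines did not overlap, which is true of 87.6% of all tested genes. Genes of the squamous and p63 list were lower for 10 of 17 members and higher for 2, with a median of -2.10 that was -1.07 with no filter on low values and -1.15 over the 15 members with their canonical transcript. The laminin LAMB3 stood at 787 and 1290 TPM in AsPC-1 and at 1.75 and 2.17 TPM in PANC-1 (-8.42, SE 0.232, limma adjusted p = 5.11e-10), and its partner LAMA3 at 188 and 253 against 0.509 and 0.369 TPM. ITGB4, the hemidesmosome integrin, stood at 525 and 556 against 10.9 and 8.13 TPM. TP73, a relative of TP63, and MYBL1 were the higher members, TP73 at 0.541 and 0.479 against 2.71 and 3.11 TPM.

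Of 11 keratins tested, 6 were lower in PANC-1 and 1 higher, with a median of -1.13 that was -0.11 over 19 members with no filter on low values. KRT19, the ductal keratin, stood at 2190 and 2293 TPM in AsPC-1 and at 707 and 722 TPM in PANC-1 (-1.65, SE 0.105, limma adjusted p = 2.64e-07). KRT8 and KRT18, the simple-epithelial pair, fell by 1.14 and 1.13 and stayed at 1165 TPM or more in every library. With quantile normalization these values were -0.97 and -0.995 and not called. KRT8 is uncertain because KRT8P3 is a near-identical copy. KRT7 was not called, at 12.5 and 12.8 against 13.7 and 13.9 TPM (difference 0.12, 95% interval -0.14 to 0.38, turning to -0.05 with either scaling). Stratified keratins KRT5 and KRT14 did not pass 0.175 TPM.

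**Figure D2:**
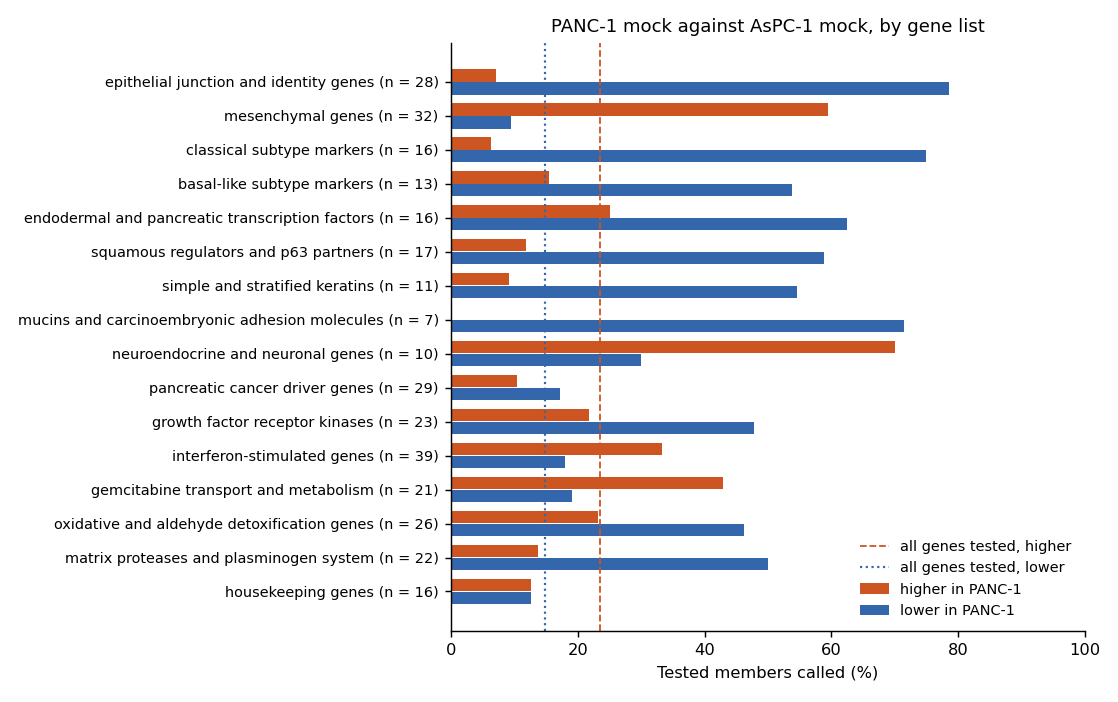
Share of tested members called higher (orange) or lower (blue) in PANC-1 for 16 gene lists, in percent; the lines mark the same share over all tested genes, 23.4% higher and 14.8% lower. Epithelial genes reach 78.6% lower and mesenchymal genes 59.4% higher.

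The 12 largest differences in each direction were taken by rule from protein-coding genes with no same-strand overlap. The largest on the lower side was KLK10. This kallikrein-related peptidase gene (ENSG00000129451, minus strand of chromosome 19, 51012739 to 51020175) had 866 and 1016 TPM in AsPC-1 and 0.156 and 0.108 TPM in PANC-1, a difference of -9.70 (SE 0.109, limma adjusted p = 8.95e-12). IGFBP1, a binding protein for insulin-like growth factors, had 657 and 758 against 0.744 and 0.644 TPM. Tissue factor (F3), which starts blood clotting, had 623 and 722 against 1.16 and 1.58 TPM. These 3 genes were close to absent in PANC-1 and abundant in AsPC-1. TMEM176B was at 291 and 287 TPM in AsPC-1 and listed at 0 in both PANC-1 libraries. The remaining lower genes were GCNT3, LGALS2, SERPINE2, AKR1C3 and KLK11, besides AREG, LGALS4 and EHF above.

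On the higher side stood FBXO27 (ENSG00000161243, minus strand of chromosome 19, 38990714 to 39032785), an F-box protein that recognises glycoproteins, at 0.088 and 0.180 TPM in AsPC-1 and 300 and 315 TPM in PANC-1 (8.09, SE 0.0951, limma adjusted p = 8.95e-12). PPP1R14A, an inhibitor of myosin phosphatase, had 1.70 and 1.40 against 485 and 460 TPM. The chemokine CCL2, which draws monocytes, was listed at 0 in AsPC-1 and stood at 116 and 138 TPM in PANC-1, and the chemokine CX3CL1 had 0.275 and 0.398 against 92.5 and 99.6 TPM. Both chemokine genes were at or near 0 in AsPC-1. CD70, a costimulatory ligand, had 0.126 and 0.900 against 111 and 108 TPM. DLL3, an inhibitory Notch ligand, had 0.302 and 0.125 against 87.9 and 89.3 TPM. RPL39L, a ribosomal protein paralogue, had 0.091 and 0 against 93.5 and 93.8 TPM, and COL1A1, a chain of type I collagen, 0.234 and 0.293 against 84.1 and 86.1 TPM. The remaining 3 genes, AKR1B1, IFNL1 and HMOX1, are described with their groups. PRAME, a cancer-testis antigen and the only member of that list to be tested, was listed at 0 in AsPC-1 and at 83.0 and 79.1 TPM in PANC-1, while the rest of the 30 listed genes did not pass the filter or had no row analysed here.

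**Figure D3:**
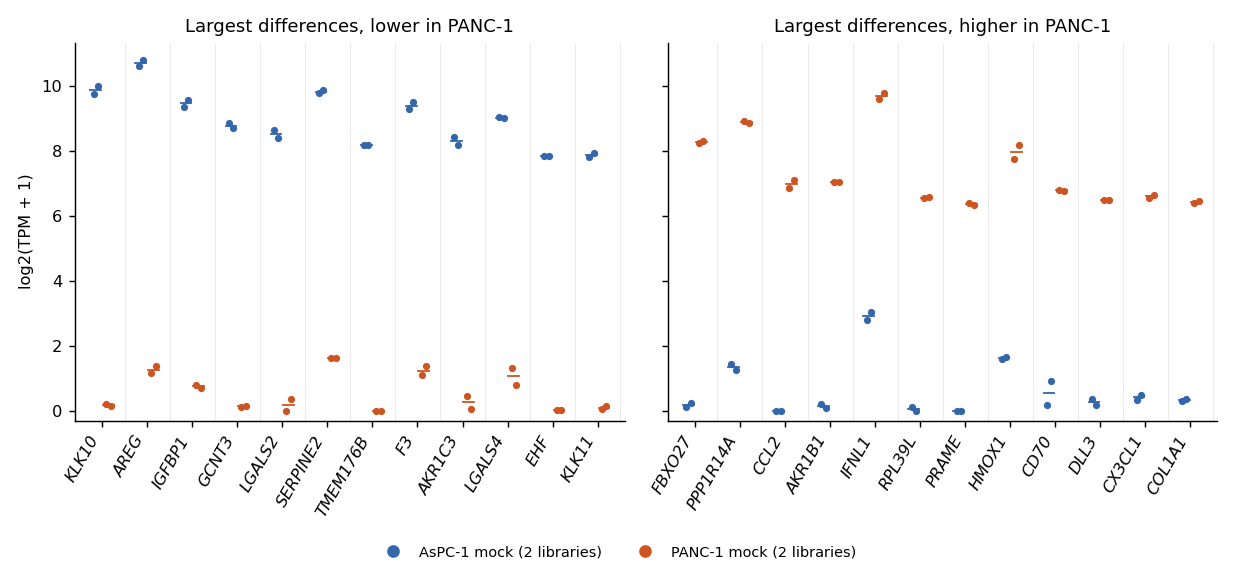
The 12 genes with the largest differences in each direction by the rule, in each mock library, on a log2(TPM + 1) axis; points are libraries and lines are means. KLK10 to KLK11 sit between 0 and 2 in PANC-1, and FBXO27 to COL1A1 sit between 6 and 10 there, with IFNL1 the only higher gene near 3 in AsPC-1.

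An interferon gene was among the 12 largest differences on the higher side. IFNL1, a type III interferon, stood at 5.99 and 7.31 TPM in AsPC-1 and at 778 and 881 TPM in PANC-1 (6.77, SE 0.142, limma adjusted p = 9.82e-11). IFNL2 and IFNL3, near-identical copies of each other whose reads cannot be kept apart with certainty, rose from 10.9 and 13.5 to 503 and 528 TPM and from 8.12 and 8.14 to 353 and 385 TPM. The type I gene IFNB1 had 0.0698 and 0.900 against 9.30 and 10.5 TPM. Each of these lay higher in both PANC-1 libraries, and IFNB1, IFNL2 and IFNL3 were named after their values were seen. Of 39 tested interferon-stimulated genes, 13 were higher (33.3%), 7 lower (17.9%) and 19 not called, with a median of 0.18 beside 0.24 for all genes. With median centring these were 0.008 and 0.07. IFIT2, which binds foreign RNA, had 56.8 and 57.8 against 430 and 470 TPM (2.95, SE 0.113, limma adjusted p = 5.60e-09). HERC6, an interferon-induced ligase, went down from 47.3 and 52.6 to 3.17 and 3.14 TPM (-3.61, SE 0.214, limma adjusted p = 1.55e-07). MX1, a GTPase that interferon induces, stayed under 1 log2 unit, at 228 and 256 against 429 and 439 TPM. In the p63 libraries the same list had 22 members called higher and 3 lower with TAp63, and 24 higher and 2 lower with deltaNp63. Over all genes the shares were 27.6% higher and 14.2% lower with TAp63, and 28.7% and 13.9% with deltaNp63. By limma's test of the difference between conditions, the line difference in the TAp63 libraries departed from that in mock for 11 of all 14767 genes, and that in the deltaNp63 libraries for 86.

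Of 29 driver genes of pancreatic cancer, 5 were lower (17.2%) and 3 higher (10.3%), beside 14.8% and 23.4% of all genes. Their median was 0.31, and it was 0.14 with quantile normalization, 0.13 with median centring and 0.18 without AsPC-1 mock replicate 2. SMAD4, a mediator of TGF-beta signalling, stood at 23.3 and 20.0 against 36.8 and 47.8 TPM (0.93, SE 0.157, limma adjusted p = 0.000379), under 1 log2 unit; it passed that limit at 1.03 without AsPC-1 mock replicate 1 and at 1.11 without PANC-1 mock replicate 1. The receptor TGFBR2 had 96.8 and 80.0 against 19.6 and 18.9 TPM, and the chromatin remodeller SMARCA4 11.7 and 19.6 against 3.44 and 3.68 TPM.

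Neighbouring genes were listed at or near 0 in the same line around CDKN2A and around MAP2K4. CDKN2A (ENSG00000147889, minus strand of chromosome 9, 21967752 to 21995301), which encodes the cell-cycle inhibitor p16, had 67.35 and 57.55 TPM in AsPC-1 and was listed at 0 in both PANC-1 libraries (limma adjusted p = 2.44e-10). Its neighbour CDKN2B, another inhibitor, had 66.4 and 81.5 TPM and 0 and 0 TPM. MTAP, a methionine-salvage enzyme beside them, was lower but not at 0, at 30.65 and 33.35 against 9.57 and 2.12 TPM, and its canonical transcript is not a row of the table. DMRTA1 on the far side was present in both, at 2.38 and 2.68 against 1.01 and 1.03 TPM. On chromosome 17, adjacent genes were at or near 0 in AsPC-1: MAP2K4, a stress kinase, stood at 0.0125 and 0 TPM against 13.2 and 11.4 TPM in PANC-1, and ZNF18, beside it, was listed at 0 in both AsPC-1 libraries against 4.97 and 4.23 TPM. ELAC2, the next expressed gene on the far side, was present in both lines. Further out, TUSC1 on chromosome 9 was listed at 0 in AsPC-1 and TMEM238L on chromosome 17 in PANC-1, against 3.34 and 3.36 TPM and 3.48 and 3.53 TPM in the other line. DNA copy number was not measured, and the part of gene loss in these values was not tested.

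**Figure D4:**
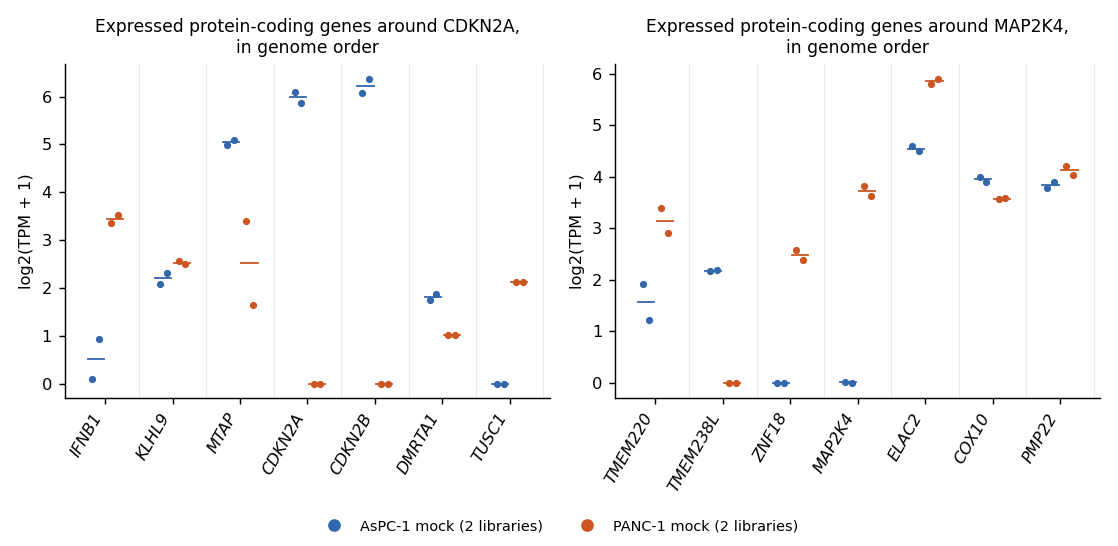
Expressed protein-coding genes in genome order around CDKN2A on chromosome 9 (left) and MAP2K4 on chromosome 17 (right) in each mock library, on a log2(TPM + 1) axis. CDKN2A and CDKN2B are listed at 0 in PANC-1, and ZNF18 and MAP2K4 lie at or near 0 in AsPC-1.

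Receptor kinases were lower for 11 of 23 tested members (47.8%) and higher for 5 (21.7%), beside 14.8% and 23.4% of all genes. Their median was 0.06. That median had no steady sign: it was -0.12 with quantile normalization or median centring, -0.07 without AsPC-1 mock replicate 2, -0.10 without PANC-1 mock replicate 1, -0.53 over the 22 members with their canonical transcript and -1.12 over the 15 members with a mean of at least 5 TPM. EGFR, the receptor for AREG, stood at 132 and 154 TPM in AsPC-1 and at 61.2 and 69.4 TPM in PANC-1 (-1.12, SE 0.177, limma adjusted p = 0.000244). ERBB3, its kinase-poor partner, was lower by more, at 39.5 and 36.6 against 2.18 and 1.29 TPM. MET, the hepatocyte growth factor receptor, had 276 and 285 against 74.2 and 80.6 TPM, and ERBB2 was not called, at 13.2 and 10.9 against 13.0 and 12.1 TPM (difference 0.06, 95% interval -0.47 to 0.58, turning to -0.12 with either scaling and to -0.07 without AsPC-1 mock replicate 2). RET, listed at 0 in AsPC-1, had 6.55 and 6.01 TPM in PANC-1, and EPHB2, an ephrin receptor, had 18.0 and 19.8 against 107 and 115 TPM.

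Genes that handle gemcitabine, a nucleoside drug used in this cancer, were higher for 9 of 21 tested members and lower for 4, with a median of 0.78 that was 0.48 with quantile normalization and 0.34 with no filter on low values. SLC29A1, which carries the drug into the cell, stood at 13.3 and 9.74 TPM in AsPC-1 and at 146 and 168 TPM in PANC-1 (3.67, SE 0.338, limma adjusted p = 4.47e-06). CDA, the deaminase that inactivates it, stood at 178 and 212 against 1.03 and 0.678 TPM (-6.73, SE 0.168, limma adjusted p = 2.86e-10). The activating kinase DCK had 17.9 and 14.9 against 31.0 and 26.6 TPM, which was not called. RRM2 and TYMS, the enzymes that supply deoxynucleotides, were higher by 1.53 and 2.27. No drug response was measured here.

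Detoxification genes were lower for 12 of 26 tested members (46.2%) and higher for 6 (23.1%), with a median of -0.88. Over all genes the shares were 14.8% and 23.4%, so the higher share was close to that of all genes. Members of the same families stood on both sides. Aldo-keto reductase AKR1C3 had 344 and 286 against 0.376 and 0.0448 TPM, while AKR1B1 of the same superfamily had 0.149 and 0.0718 against 132 and 130 TPM. Haem oxygenase HMOX1 stood at 2.04 and 2.19 against 216 and 286 TPM, whereas NQO1, a quinone reductase that shares its NRF2 regulator, fell from 780 and 753 to 264 and 265 TPM. ALDH1A3, a retinal dehydrogenase, had 667 and 783 against 37.4 and 39.7 TPM. Carboxylesterase CES1, which has a near-identical pseudogene, was listed at 0 in AsPC-1 and at 33.1 and 33.9 TPM in PANC-1.

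Matrix proteases and plasminogen genes were lower for 11 of 22 tested members and higher for 3, with a median of -0.65. With no filter on low values the median over 28 members was 0.02. Of these, 6 stayed under 1 TPM in every mock library, so the sign depended on counting such members. In the other settings the median was negative, from -0.548 over single transcript rows to -1.006 with a mean of at least 5 TPM. MMP2, a gelatinase, was listed at 0 in AsPC-1 and at 54.0 and 52.0 TPM in PANC-1, while MMP7, a matrilysin of epithelium, went from 456 and 408 to 3.41 and 3.90 TPM (-6.54, SE 0.0885, limma adjusted p = 1.43e-11). Urokinase (PLAU) was not called, at 423 and 533 against 566 and 662 TPM, but its receptor PLAUR fell from 570 and 731 to 31.8 and 42.4 TPM. The protease inhibitor SERPINE2 fell from 870 and 929 to 2.06 and 2.12 TPM. Neuroendocrine and neuronal genes were higher for 7 of 10 tested members and lower for 3, with a median of 1.86. The tested genes were a minority, since 17 of the 27 with a row stayed under 1 TPM in every mock library. The median was 0.09 over 26 members with no filter on low values, 3.52 over the 3 members with a mean of at least 5 TPM and 2.98 with a pseudocount of 0.1. L1CAM, a neural adhesion molecule, stood at 0.358 and 0.419 against 177 and 180 TPM, and the tubulin TUBB3 at 15.2 and 20.1 against 209 and 212 TPM. The 3 lower members were SCG2, NRCAM and SSTR5. SCG2 had 8.309 and 8.069 TPM in AsPC-1 and 0.3162 and 0.07578 TPM in PANC-1. NRCAM had 5.081 and 7.382 TPM in AsPC-1 and was listed at 0 in both PANC-1 libraries. SSTR5 had 7.415 and 5.692 against 0.438 and 6.055e-05 TPM. The neuroendocrine granule gene CHGA did not pass 0.231 TPM in the 4 libraries. Of 16 housekeeping genes, 2 were higher (12.5%) and 2 lower (12.5%), beside 23.4% and 14.8% of all genes, and 12 were not called. GAPDH, not called, stood at 3452 and 3448 against 3006 and 3117 TPM. The higher 2 were TBP, at 13.35 and 12.26 against 34.32 and 34.48 TPM, and B2M, at 2925 and 2538 against 6016 and 6131 TPM. The lower 2 were YWHAZ, at 1986 and 2285 against 706.1 and 698 TPM, and SDHA, at 166.4 and 180.5 against 84.34 and 85.26 TPM. The calls of B2M and SDHA did not hold in every setting, and SDHA has a near-identical copy, SDHAP2.

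Calls were uneven along the genome. On chromosome 8, 34.2% of 497 tested genes were lower in PANC-1 and 10.7% higher, against 14.8% and 23.4% over all genes. Chromosome 6 had 34.9% higher and chromosome 15 had 33.0% higher and 7.9% lower. Among zinc finger genes of chromosome 19 with a ZNF name, most of which encode KRAB-type repressors, 121 of 207 (58.5%) were higher and 6 lower, with a median of 1.15. ZNF genes of other chromosomes were higher for 67 of 221 (30.3%), and other protein-coding genes of chromosome 19 for 25.9%. The median of 1.15 lay close to the limit of 1 log2 unit. Shares by chromosome and family were counted only on the values as deposited, and median centring moved the median of all genes from 0.24 to 0.07. The ZNF677, ZNF43 and ZNF256 genes were chosen after their values were seen. ZNF677 stood at 0.154 and 0.173 against 16.6 and 15.8 TPM. ZNF43 and ZNF256 were listed at 0 in AsPC-1 and were at 11.03 and 12.03 TPM and at 7.93 and 8.43 TPM in PANC-1. Of the 207 ZNF genes of chromosome 19, 72 were under 1 TPM in AsPC-1 only and 0 in PANC-1 only. The same counts were 27 and 7 of the 221 ZNF genes elsewhere and 73 and 48 of the 783 other genes of chromosome 19. Genes that reach 1 TPM through 1 line alone had to differ, so these counts are a description. The kallikrein genes of the same chromosome lay the other way, with 8 of 9 tested lower and none higher. Of these 9, 8 were under 1 TPM in PANC-1 only and 0 in AsPC-1 only, so this count too is a description.

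**Figure D5:**
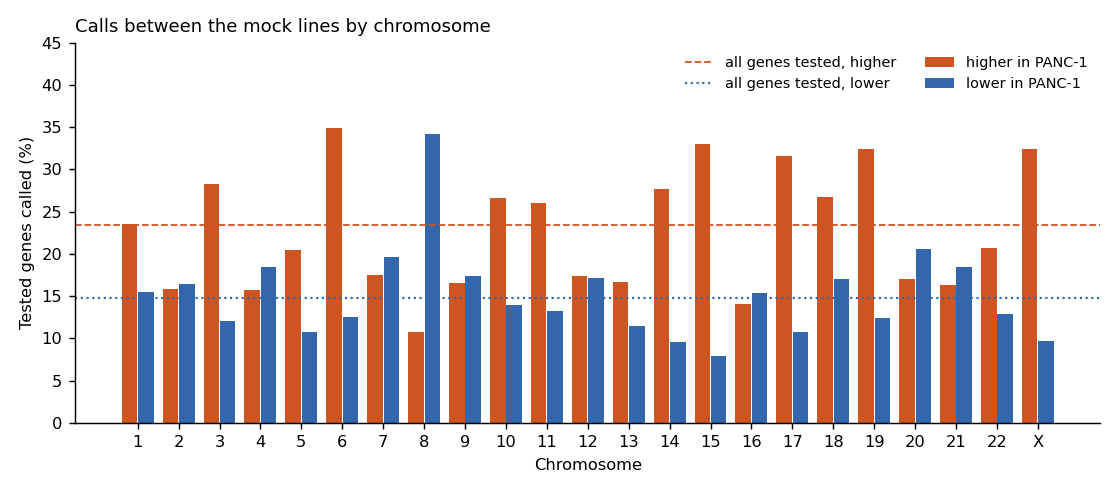
Share of tested genes called higher (orange) or lower (blue) in PANC-1 on each chromosome, in percent, with the shares over all genes as lines. Chromosome 8 has the highest lower share at 34.2%, and chromosome 6 the highest higher share at 34.9%.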

How the data were processed

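Poly(A) RNA libraries (stranded kit, per the labels' protocols) were made from 12 samples in 6 groups of 2. The authors deposited TPM values for 153329 transcript rows in a single table, each library summing to 1000000; the aligner, counter, build and annotation are not given in the sources used here. Transcripts were paired with genes through GENCODE v44 (hg38), which matched 139819 rows (91.2%) holding 89.6% to 90.5% of a library's TPM, and summed to 39099 genes. The 14767 genes that reached 1 TPM in 2 or more libraries were tested as log2(TPM + 1) with limma 3.58.1 (R 4.3.3; version 1.17.8 of data.table): a mean for each of 6 groups, eBayes with trend, two-sided p, Benjamini-Hochberg adjustment over all tested genes. A gene was called at an adjusted p under 0.05 and 1 log2 unit. Tables were handled with Python 3.11.15, pandas 2.3.3 and numpy 2.4.6, and drawn with matplotlib 3.10.9.

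Named genes were the 12 largest differences each way among called protein-coding genes with no overlap between lines or with a same-strand gene, no near-identical copy (95% identity over 50%, minimap2 2.31-r1302) and a mean of at least 10 TPM in the higher line; up to 3 called members each way of 17 lists; and a fixed set that includes TP63, CDH1, VIM, GATA6 and CDKN2A. Some genes that these rules name are not reported here. Other members and neighbours were named after their values were seen. The members, lists and rules were chosen with earlier results of these data known. Of the tested genes, 1480 lack their canonical transcript among those rows (DHRS9, NT5C3A, GATA4, MTAP, COL17A1, B2M, SSTR5, SAMHD1, KRT8, ZEB2, TWIST2 and KLK8 among the named), so their sums may miss a part. The fit was tested on simulated data before use. Genes of the lists with no row (among them ISG15 and MUC5AC) were not analysed here. Values are uncertain for genes that overlap another annotated gene on the same strand, which among those named are ALDH1A3, APOE, BASP1, CD68, CDH1, CDH17, CDH2, CEACAM6, CLDN7, COL17A1, CTSV, DCK, ELF3, ENTPD4, EPCAM, EPHB2, ERBB2, ERBB3, ESRP1, ESRP2, HNF4A, IFI6, IFIT2, KLK6, KLK8, KRT7, L1CAM, LAMB3, LDHA, LDHB, LOXL2, MAP2K4, MMP2, MTAP, NT5C3A, PLAUR, S100A4, SDHA, SMAD4, SMARCA4, SNRPN, SNURF, TMEM238L, TP63, TUBB3, ZEB1, ZEB2 and ZNF18.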

Additional observations from a re-analysis of the deposited data

Results flagged for a closer look

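For the genes given here, the difference between the lines was not the same with p63 as in mock, by limma's test of the difference between those differences with adjustment over all 14767 genes. Of 178 named genes, 4 passed in the TAp63 libraries and 13 in the deltaNp63 libraries. Values are the line difference (PANC-1 minus AsPC-1, log2 units) with p63 minus that in mock, from 2 libraries a group.

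Most of these named genes were interferons or genes that interferon induces, and the naming drew on a list of interferon-stimulated genes. Over all 14767 genes, 11 passed with TAp63 and 86 with deltaNp63, and those not named are not described here. With deltaNp63 the shift was 2.51 for MX1 (adjusted p = 0.00189), 2.14 for HERC6 (adjusted p = 0.0118) and 2.06 for IFI6 (adjusted p = 0.00154). It was 1.79 for IFIT1, 1.62 for IFIT2, 1.33 for IFI44 and 1.33 for OASL. The nucleotide hydrolase SAMHD1, also induced by interferon, shifted by 1.72. Among the interferons themselves the shift was 1.77 for IFNL1, 1.78 for IFNL2 and 1.87 for IFNL3, of which the last 2 are near-identical copies. For HERC6, which was lower in PANC-1 in mock, a positive shift means a smaller line difference, from -3.61 in mock to -1.48 with deltaNp63. For IFIT1 it means a larger one, from 2.20 to 3.99. Mean IFIT1 was 204 TPM in mock and 59.2 TPM with deltaNp63 in AsPC-1, against 939 and 955 TPM in PANC-1. Mean HERC6 went from 49.9 to 13.7 TPM in AsPC-1 and from 3.2 to 4.3 TPM in PANC-1. For IFNL1 the mean fell from 6.65 to 2.15 TPM in AsPC-1 and rose from 829 to 1162 TPM in PANC-1.

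With TAp63 the shift was 1.46 for IFI6, 1.197 for IFIT1, 1.30 for IFNL2 and 1.33 for SAMHD1, each with an adjusted p of 0.0285. Outside this group, MMP7 shifted by 0.717 with deltaNp63 (adjusted p = 0.0399). TP63, the overexpressed gene, shifted by 2.61 with deltaNp63 (adjusted p = 0.01). Its overexpressed level was not equal between the lines. Among the TAp63 libraries, PANC-1 averaged 333 TPM of TP63 while AsPC-1 averaged 136 TPM. Under deltaNp63, PANC-1 averaged 1001 TPM, against 298 TPM for the other line. The part of these unequal TP63 levels in the other shifts was not tested.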

How the results depend on the processing

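The mock comparison called 5644 genes. It called 3733 with a mean of at least 5 TPM (10221 genes tested), 15133 of 51675 transcript rows tested on their own, 10711 with no fold limit and 2092 at 2 log2 units, where the members of the gene lists called fell from 206 to 131. Leaving out a mock library gave 5576 to 5781, and no call turned direction under any setting that was run on genes. Quantile normalization and median centring moved the median of all genes from 0.24 to 0.08 and 0.07, and the share of calls higher in PANC-1 from 61.2% to 52.2% under either. Under quantile normalization that share went from 66.0% to 52.4% in the TAp63 libraries and from 67.3% to 51.9% in the deltaNp63 libraries. List medians depended on which members were kept. Between no filter on low values, a mean of at least 5 TPM and a pseudocount of 0.1, the median ran from -0.22 to -7.31 for mucins, from -1.003 to -7.23 for classical markers and from 0.09 to 3.52 for neuroendocrine genes. That of matrix proteases changed sign (-1.006 to 0.02), as did that of receptor kinases (-1.12 to 0.117 over all settings). Uncalled genes near 0 changed sign: ERBB2 (-0.12 under either scaling, -0.066 to 0.181 when a library was left out, the lowest without AsPC-1 mock replicate 2), KRT7 (-0.051 and -0.053) and OCLN (-0.147 to 0.067 when a library was left out, above 0 without AsPC-1 mock replicate 2 or PANC-1 mock replicate 1). Calls close to 1 log2 unit were lost under a scaling for ESRP2, TGFBR1, KRT8, KRT18, ZEB2, AGR2, B2M, CD68 and VIM, and without 1 library for PDX1, SLC28A3, VIM, ESRP2, SDHA, AGR2 and ZEB2. The causes were not tested. A replicate block gave 5648 calls, which include 5643 of the 5644, and no named gene changed its call; in the TAp63 and deltaNp63 libraries the block gave 6177 and 6297. Same-numbered mock libraries deviated together with r = 0.099, so the numbers are not taken to pair cultures. Restricting to genes with their canonical transcript, chosen after seeing the data, gave 5087 calls. TPM holds no depth, so no counting error could be given.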

Other observations

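Lactate dehydrogenase B, outside the naming rule because it overlaps ENSG00000285854 on its strand, was also among the genes higher in PANC-1. LDHB was listed at 0 in both AsPC-1 libraries and stood at 563 and 547 TPM in PANC-1 (limma adjusted p = 3.88e-12). Its partner subunit gene LDHA was abundant in both lines, at 1719 and 1687 against 1364 and 1317 TPM. Other overlapping genes with a similar contrast were the lipid carrier APOE, at 0.162 and 0.349 against 220 and 209 TPM, and BASP1, a membrane protein of growing neurites, at 0 and 0.0277 against 226 and 206 TPM.

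Neighbouring genes were also listed at or near 0 together at other sites. The imprinted genes SNRPN and SNURF on chromosome 15, which overlap, were listed at 0 in both AsPC-1 libraries, and SNRPN stood at 10.2 and 7.85 TPM in PANC-1. In the kallikrein cluster of chromosome 19, KLK7 and KLK8 were listed at 0 in PANC-1 and stood at 16.2 and 15.6 TPM and at 54.5 and 44.6 TPM in AsPC-1, and KLK6 had 63.7 and 63.9 against 0 and 0.0312 TPM. In the AKR1C cluster of chromosome 10, AKR1C1 had 36.8 and 39.7 against 0.0623 and 0.0799 TPM, and AKR1C2, a near-identical copy, 13.3 and 15.1 against 0.205 and 0.180 TPM. These genes were chosen after their values were seen.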
